A study of Mus musculus with 12 samples.

Results

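The variable gene segments of the T cell receptor alpha chain (Trav) and beta chain (Trbv) were examined in mouse CD4 T cells with and without the M2 form of the glycolytic enzyme pyruvate kinase. The members were every gene whose symbol begins with Trav or Trbv, which gave 163 of the 55450 genes in the deposited tables. Of these, 128 were Trav segments on chromosome 14, 108 annotated as genes and 20 as pseudogenes. The other 35 were Trbv segments on chromosome 6, 22 annotated as genes and 13 as pseudogenes. The rule used symbols only and no measured value.

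A T cell receptor alpha chain gene is assembled in the thymus by joining 1 of many variable segments to a joining segment and a constant region, and a beta chain gene adds a diversity segment between them. Each mature T cell and its progeny therefore transcribe a chosen pair of variable segments, so the segment RNA of a population reads out which receptors its cells carry. In the mouse alpha locus a stretch of segments has been duplicated, and the copies carry a d or an n in their names beside the plain copy, as in Trav7-2 and Trav7d-2. Many of these copies are nearly or fully identical in sequence.

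The stimulated groups were Pkm2 knockout (KO) cells cultured with plate-bound antibodies to CD3 (1 ug/mL) and CD28 (2 ug/mL) in the presence of human IL7 (25 ng/mL), and wild-type (WT) cells stimulated in the same way. The KO and WT resting groups received the same IL7 without antibodies. Each of the 4 groups had 3 polyA RNA libraries. The series text names spleen and lymph nodes as the source of naive T cells and a culture of 24 h, whereas the sample labels give splenocytes, positively selected CD4 T cells and an overnight culture. The knockout allele, its driver, the strain, the age and whether each library had its own animal are not stated in the sources used here, so every p-value below rests on a spread among libraries that may be technical.

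The libraries held 63266498 to 76891812 counts each. Pkm, the gene of the targeted enzyme, lay at 935 to 957 CPM (counts scaled to a library total of 1000000) in KO and 2142 to 2226 CPM in WT stimulated cells, and at 201 to 216 CPM in KO and 486 to 539 CPM in WT resting cells. The whole gene was counted here, so the M2 form was not measured separately. Stimulated and resting libraries were deposited in separate tables, and they differed in sex-linked RNA: Xist, the RNA of the silenced X chromosome in female cells, lay at 822 to 1015 CPM in the 6 stimulated libraries and at 0.0577 to 0.0971 CPM in the 6 resting libraries. The Y-linked Ddx3y had 0 counts in all 6 stimulated libraries and lay at 158 to 188 CPM in the resting ones. Stimulation, table and sex of the cells cannot be told apart in any comparison of stimulated with resting libraries below.

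The copies on which the comparison of KO with WT turned were read from the GENCODE M21 transcripts of the GRCm38 (mm10) build, and the 3′ stretch of their coding parts, which holds every difference, is printed 5′ to 3′. Trav7-2 (ENSMUSG00000096417.2) lies at chr14:53390635-53391142 and Trav7d-2 (ENSMUSG00000105533.1) at chr14:52683964-52684472, both on the plus strand with 2 exons and no annotated UTR. They are shown because each was counted in 1 genotype only after stimulation. The 336 coding bases of Trav7-2 are all found in Trav7d-2, and the capital marks the extra base at the 3′ end of Trav7d-2. The stretches are chr14:53390903-53391142 for Trav7-2 and chr14:52684232-52684472 for Trav7d-2.
Trav7-2: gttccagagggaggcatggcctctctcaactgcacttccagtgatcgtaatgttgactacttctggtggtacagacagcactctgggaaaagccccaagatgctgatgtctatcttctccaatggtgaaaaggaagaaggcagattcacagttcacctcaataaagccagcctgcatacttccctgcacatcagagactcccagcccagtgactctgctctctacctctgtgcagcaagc
Trav7d-2: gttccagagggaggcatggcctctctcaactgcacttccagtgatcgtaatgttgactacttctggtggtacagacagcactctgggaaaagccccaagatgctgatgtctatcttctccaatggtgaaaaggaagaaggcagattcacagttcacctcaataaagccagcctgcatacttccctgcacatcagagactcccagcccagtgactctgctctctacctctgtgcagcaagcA

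Trav7n-6 (chr14:53324632-53325208, plus strand) and Trav7-6 (chr14:53716716-53717291, plus strand) are shown as a pair that sequence can separate. Capitals mark the 9 of 337 coding positions at which they differ, in chr14:53324969-53325208 for Trav7n-6 and chr14:53717052-53717291 for Trav7-6.
Trav7n-6: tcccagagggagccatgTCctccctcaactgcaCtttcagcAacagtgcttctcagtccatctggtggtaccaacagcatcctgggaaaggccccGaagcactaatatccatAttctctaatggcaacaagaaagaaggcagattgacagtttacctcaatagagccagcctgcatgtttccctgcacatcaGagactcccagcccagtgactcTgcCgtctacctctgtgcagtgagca
Trav7-6: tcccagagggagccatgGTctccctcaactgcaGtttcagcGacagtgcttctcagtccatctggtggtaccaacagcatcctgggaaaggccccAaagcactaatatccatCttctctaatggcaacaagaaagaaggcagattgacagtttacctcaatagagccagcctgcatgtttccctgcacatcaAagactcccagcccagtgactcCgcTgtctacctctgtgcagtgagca

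A further variable gene, C920008G01Rik (chr14:53020416-53020991, plus strand), lies outside the symbol rule because it carries a clone name. Its 337 coding bases are the same as those of Trav7n-6, with 0 differing positions, and its transcript of 380 bases lies whole within the 381 bases of Trav7n-6. It was looked at after the counts of Trav7n-6 had been seen. Trav11 (chr14:53519303-53519859, plus strand) is the segment of the invariant receptor of natural killer T cells. Its 343 coding bases differ from the 342 of its copy Trav11d (chr14:52824357-52824912, plus strand) only by the 3′ base in capitals, shown for chr14:53519619-53519859 and chr14:52824673-52824912.
Trav11: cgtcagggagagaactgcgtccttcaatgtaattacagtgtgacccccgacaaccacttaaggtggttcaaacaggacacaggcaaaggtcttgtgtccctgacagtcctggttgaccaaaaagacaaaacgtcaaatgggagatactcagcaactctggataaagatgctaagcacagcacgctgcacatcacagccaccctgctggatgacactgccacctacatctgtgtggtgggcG
Trav11d: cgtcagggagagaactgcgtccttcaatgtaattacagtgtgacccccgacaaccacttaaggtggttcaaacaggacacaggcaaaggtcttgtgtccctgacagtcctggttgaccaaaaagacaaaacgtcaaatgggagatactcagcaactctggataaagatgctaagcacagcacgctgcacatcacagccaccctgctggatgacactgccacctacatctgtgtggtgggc

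Of the 163 segments, 119 had at least 1 count in all 12 libraries and 19 had 0 counts in every library. Those 19 were 2 Trav genes, 9 Trav pseudogenes and 8 Trbv pseudogenes. All 22 Trbv segments annotated as genes had counts. The segments together took 13039 to 15579 counts per stimulated library and 28911 to 40206 counts per resting library, so 1 count stood for 0.00642% to 0.00767% of the segment counts in stimulated and 0.00249% to 0.00346% in resting libraries. Pseudogenes of the alpha chain held 0.128% to 0.186% of all segment counts in stimulated and 0.0759% to 0.195% in resting libraries.

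Beta chain segments carried most of the counts. Trav segments made up 31.3% ± 0.517 of the segment counts in KO and 30.6% ± 2.25 in WT stimulated cells, and 35.2% ± 0.372 in KO and 34.3% ± 0.444 in WT resting cells (SD, n = 3 each). Within the alpha chain, segments named without a d or n took 55.5% ± 1.17 of the Trav counts in KO and 54.6% ± 1.41 in WT stimulated cells, against 51.8% ± 1.05 in KO and 50.1% ± 1.05 in WT resting cells (SD, n = 3 each). The remainder was divided about evenly between the d and the n copies. Many d and n copies have the same transcript, and 144 of 145 library values of same-transcript pairs were divided equally (below). This evenness is therefore in part no measure of usage.

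Levels were compared between segments after dividing each count by the transcript length and expressing it as a share of all segments in the library, the length-scaled share. On this scale Trbv3 led the beta chain with a mean of 7.73% over the 12 libraries. It held 8.46% ± 0.147 in KO and 8.28% ± 1.28 in WT stimulated cells, and 6.94% ± 0.122 in KO and 7.25% ± 0.22 in WT resting cells (SD, n = 3 each). Trbv13-2 followed with a mean of 6.33%, then Trbv1 with 5.67%, Trbv31 with 5.49%, Trbv13-1 with 5.35% and Trbv5 with 4.96%. In resting KO cells Trbv1 (5.12% ± 0.208), Trbv13-1 (4.95% ± 0.104) and Trbv5 (4.87% ± 0.227) lay within 1 SD of their neighbours in that order (n = 3). Trbv3 and Trbv13-2 each lay above all segments ranked after them by more than their SD in that group.

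Trbv19 and Trbv2 had ranks 5 and 6 by share of counts, at means of 5.04% and 4.99%, but ranks 9 and 8 by length-scaled share, at 3.58% each. Their annotated transcripts are 566 and 560 bases long, whereas most Trbv transcripts are between 335 and 417 bases. Trbv4 and Trbv5 share runs of 297 and 296 bases with the non-member transcript 5830405F06Rik, so their counts are uncertain to that extent. 5830405F06Rik itself lay at 2.33 to 2.64 CPM in stimulated and 3.21 to 4.94 CPM in resting libraries. At the low end, Trbv21 had 2 to 7 counts per stimulated library and 3 to 14 counts per resting library.

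Usage of the alpha chain was spread over many more segments. The leading one, Trav6-7-dv9, held a length-scaled share of 1.46% ± 0.055 in KO and 1.31% ± 0.27 in WT stimulated cells, and 1.19% ± 0.068 in KO and 1.15% ± 0.0837 in WT resting cells (SD, n = 3 each). Trav4-4-dv10 (0.948% over the 12 libraries), Trav14-2 (0.869%), Trav7-4 (0.853%) and Trav10 (0.844%) came next on this scale. Their SD in single groups overlapped one another, so their order was not resolved. Copies with the same transcript divide their joint counts, which lowers their rank as single segments. Trav9n-4 had rank 3 by counts, with 0.862% of all segment counts, and rank 14 per length.

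**Figure D1:**
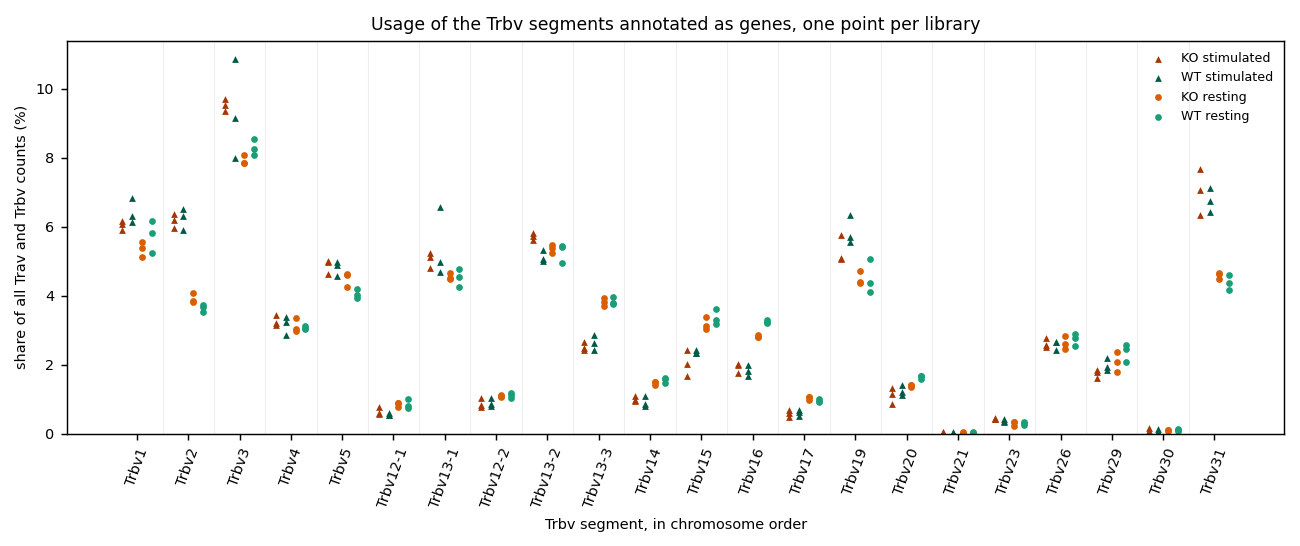
Share of all Trav and Trbv counts (y axis, percent) held by each Trbv segment annotated as a gene (x axis, chromosome order), with 1 point per library, triangles for stimulated and circles for resting cells, KO left of WT. KO and WT points of a condition mostly lie over each other, whereas Trbv2 and Trbv31 lie higher and Trbv13-3 to Trbv17 lower in stimulated than in resting libraries.

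Stimulated KO cells were next compared with stimulated WT cells. Of 113 segments that passed the filter on low counts, 1 was called higher in KO cells and 1 lower at an adjusted p under 0.05 (edgeR quasi-likelihood test, Benjamini-Hochberg adjustment over all genes). Among all 15090 genes tested, 3.37% were called higher and 1.4% lower. The 2 segments were the copies Trav7d-2 and Trav7-2. They were also the only members with at least 3 counts in every library of 1 group and 0 in every library of the other genotype.

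Trav7d-2 had 101, 100 and 102 counts in KO stimulated cells and 0, 0 and 0 in WT stimulated cells. Trav7-2 had 0, 0 and 0 counts in KO stimulated cells and 131, 106 and 117 in WT stimulated cells. The groups did not overlap for either copy, and the 2 copies moved in opposite directions. Against a floor of 3 counts per library, Trav7d-2 was at least 34.2-fold higher in KO cells (adjusted p = 0.000106) and Trav7-2 at least 38.6-fold lower (adjusted p = 9.78e-05, edgeR). The pair was named beforehand with earlier results of these data known, so its folds and p-values are a description and no independent test.

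The sum of the 2 copies did not follow this split. It was 101, 100 and 102 counts in KO and 131, 106 and 117 counts in WT stimulated cells, which is 1.5, 1.3 and 1.38 CPM in KO and 1.76, 1.47 and 1.57 CPM in WT cells. The KO libraries lay toward the low end, and the groups overlapped. Fitted as 1 feature, the set had a log2 fold change of -0.22 ± 0.14 (SE) and an adjusted p of 0.42 (edgeR). With all copy sets summed, 0 of 67 features were called in either direction, and 2 were higher and 0 lower at an unadjusted p under 0.05. Among all 15044 features of that fit, 3095 had such a p in either direction.

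In resting cells, counts of the same pair stood in either copy in both genotypes. Trav7d-2 had 0, 0 and 269 counts in KO and 0, 113 and 128 counts in WT resting cells. Trav7-2 had 232, 268 and 0 counts in KO and 208, 125 and 122 counts in WT resting cells. Replicate 3 of the resting KO cells thus had all counts in the copy that its 2 companions lacked, and 2 WT libraries held both. The sums were 232, 268 and 269 counts in KO and 208, 238 and 250 counts in WT resting cells, and the set had a log2 fold change of 0.04 ± 0.15 (SE, adjusted p = 0.91, edgeR).

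**Figure D2:**
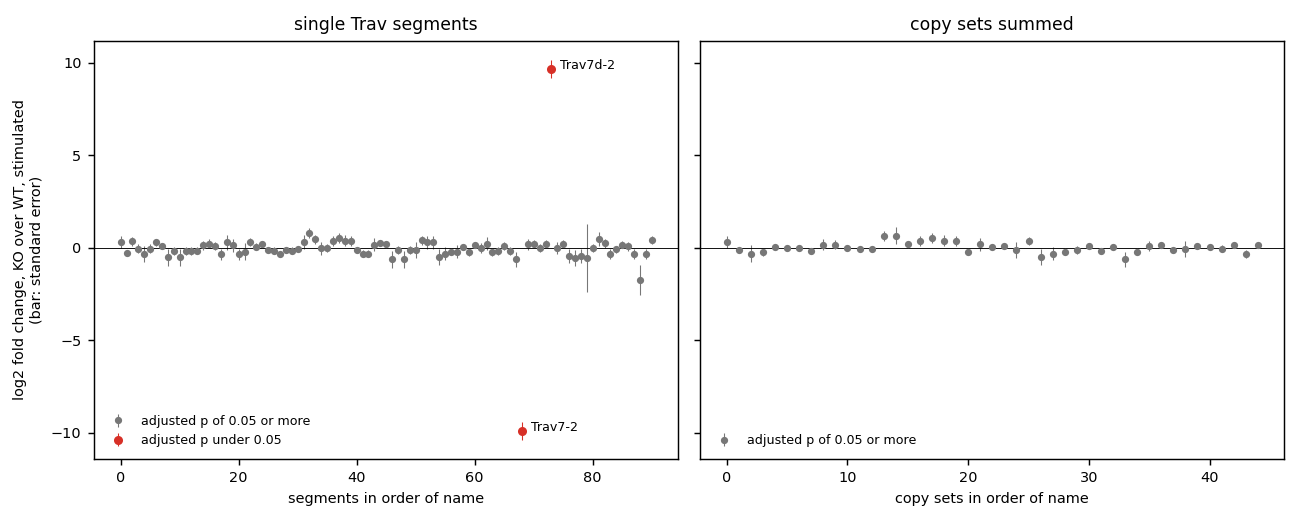
Log2 fold change of KO over WT in stimulated cells (y axis) with its standard error, for the single Trav segments that passed the filter (left) and for the copy sets after their counts were summed (right), in order of name along the x axis. Trav7d-2 and Trav7-2 stand apart as single segments, at fitted values that rest on groups with 0 counts, and none of the summed sets is past the threshold.

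The same behaviour was looked for in every pair of copies whose annotated transcripts are the same or lie one within the other. There were 22 such pairs, 17 with the same transcript and 5 with one contained in the other. In pairs with the same transcript, 144 of 145 library values with at least 30 counts were divided equally, to within 0.02 counts. In contained pairs, 0 of 50 library values were divided equally and 43 had all counts in 1 copy. The authors' counts came from RSEM, a program that assigns reads shared between transcripts by estimation, and how it treated these pairs was not tested.

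The exception among the same-transcript pairs was Trav6d-7 with Trav6n-7. They had 265 and 0 counts in replicate 2 of the resting KO cells, and equal counts, such as 118 and 118 in replicate 1, in the other 11 libraries. Trav14d-1 and Trav14n-1, another such pair, were equal in all 12 libraries, from 71 counts each in a stimulated KO library to 457 each in a resting KO library.

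Among the contained pairs, Trav7n-6 had 0, 73 and 0 counts in KO and 0, 61 and 43 in WT stimulated cells, and 160, 140 and 152 in KO and 150, 97 and 23 in WT resting cells. C920008G01Rik had 54, 0 and 73 counts in KO and 55, 0 and 0 in WT stimulated cells, and 0, 0 and 0 in KO and 0, 0 and 114 in WT resting cells. Where 1 of them was low the other was high, and 11 of 12 libraries had all counts in 1 of the 2. Trav7-6, printed above with its 9 differing positions, stayed between 43 and 73 counts in stimulated and between 74 and 121 in resting libraries.

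Trav12d-3 and Trav12n-3 also divided their counts differently between libraries. Trav12d-3 had 0 counts in the 6 stimulated libraries, 0, 0 and 44 in KO and 89, 72 and 0 in WT resting cells. Its copy Trav12n-3 had 63, 52 and 62 counts in KO and 69, 53 and 80 in WT stimulated cells, and 122, 152 and 108 in KO and 47, 62 and 119 in WT resting cells. The counts of Trav15d-1-dv6d-1 and Trav15n-1 did not change place: Trav15n-1 had 0 counts in all 12 libraries, and the pair reached 30 counts in 7 of them. In all, 7 segments had 0 counts in some library and at least 30 in another, and 5 of them belong to the contained pairs. The other two were Trav6n-7 and Trav9d-4.

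**Figure D3:**
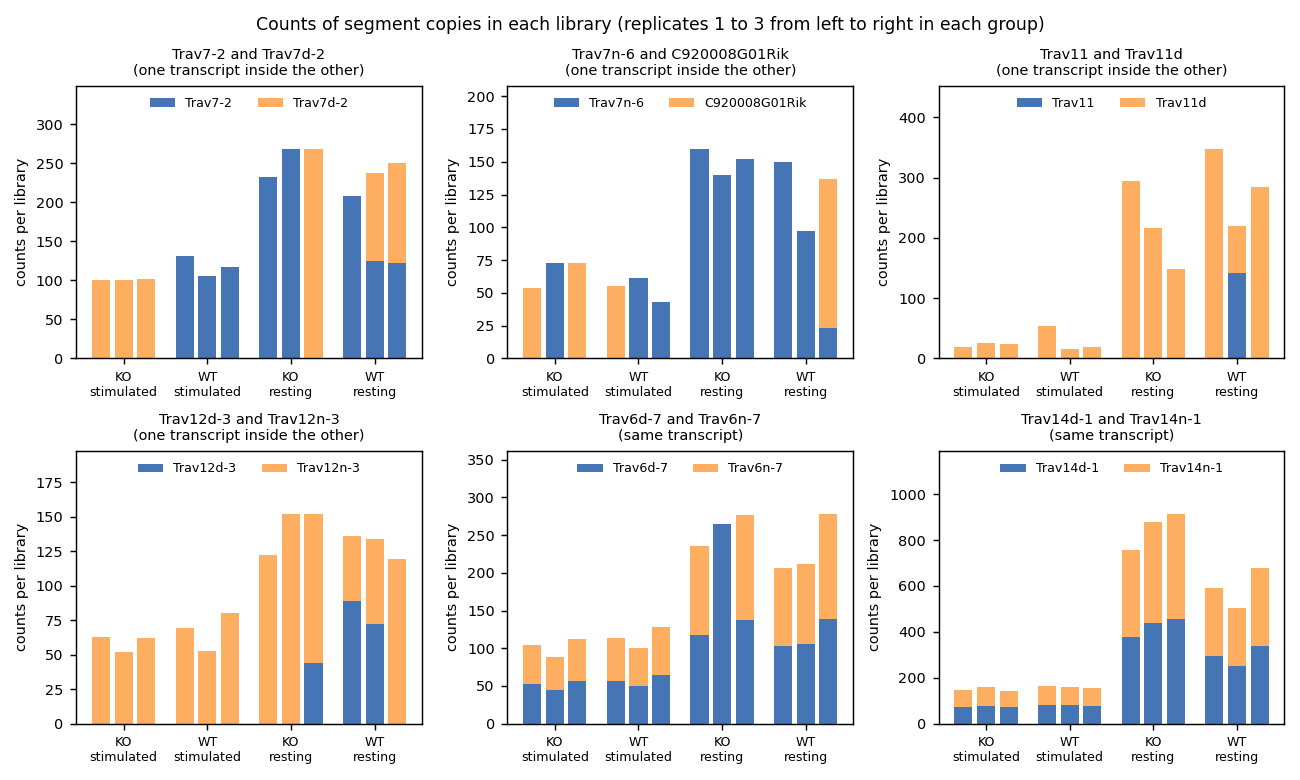
Counts per library (y axis) of 6 pairs of copies, stacked, for replicates 1 to 3 of KO stimulated, WT stimulated, KO resting and WT resting cells (x axis). In the 4 pairs in which one transcript lies inside the other most bars are of 1 colour, whereas Trav14d-1 and Trav14n-1 split every bar equally and Trav6d-7 and Trav6n-7 split all bars but that of KO resting replicate 2.

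Copies were then compared by their share of the set, whether or not their transcripts differ. Copies with the same transcript count separately here, and Trav7-2 and Trav7d-2 are among those apart in stimulated cells. Of 31 copy sets with at least 30 counts in every library, holding 86 copies, KO and WT shares did not overlap for 18.6% of the copies in stimulated and 15.1% in resting cells. In 7 copies of 3 sets they lay apart in the same direction in both conditions. The 7 include the identical pairs Trav12d-2 with Trav12n-2 and Trav4d-4 with Trav4n-4. Since the 7 were found by that pattern, the values are given as a description without a test. Trav12-2 held 42.3%, 46.5% and 50.2% of its set in KO and 38.5%, 40.3% and 37.8% in WT stimulated cells, and 41.4%, 48.7% and 40.8% in KO and 37.2%, 34.5% and 39.9% in WT resting cells. Trav12d-2 and Trav12n-2, which are identical to each other, made up the rest in equal parts and lay lower in KO cells.

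Trav4-4-dv10, which can also be joined in delta chains, held 61.5%, 61.5% and 63.6% of its set in KO and 54.3%, 57.6% and 58.5% in WT stimulated cells. In resting cells its share was 56.3%, 55.4% and 54.7% in KO and 46.3%, 48.9% and 51.9% in WT. Trav14-3 held 29.6%, 35.1% and 37.4% in KO and 27.3%, 28.9% and 28.8% in WT stimulated cells, and 22.5%, 23.2% and 24.4% in KO and 18.3%, 18.5% and 21.8% in WT resting cells. The plain copy was thus the higher one in KO cells in all 3 sets. As features tested on their counts, Trav12-2, Trav4-4-dv10 and Trav14-3 were not called in either condition, with log2 fold changes of 0.30 ± 0.19, 0.21 ± 0.15 and 0.18 ± 0.15 in stimulated cells (SE, edgeR).

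The summed level of the segments did not differ between the genotypes beyond the spread in stimulated cells. Trav segments summed to 61.3, 62.2 and 62.2 CPM in KO and 62.7, 54.7 and 65.5 CPM in WT stimulated cells (exact permutation test, two-sided, p = 1). Trbv segments summed to 132, 140 and 136 CPM in KO and 144, 137 and 133 CPM in WT stimulated cells (p = 0.6, same exact test). The groups overlapped in both chains. With 3 libraries against 3 the smallest p this test can give is 0.1. KO cells lay above all WT libraries for 10 of 113 segments, against 18.1% of all genes tested, and below all for 5, against 8.49%.

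Evenness of usage did not differ between the genotypes beyond the spread. The Shannon entropy of the segment shares, which is higher when usage is more even, was 5.54 ± 0.00201 bits in KO and 5.53 ± 0.0807 bits in WT stimulated cells (SD, n = 3 each, exact permutation p = 0.7). It was 5.78 ± 0.0218 bits in KO and 5.77 ± 0.0106 bits in WT resting cells (SD, n = 3 each, exact permutation p = 0.5). The share of Trbv usage that had to be moved to turn 1 library into another, the Bray-Curtis distance, had a median of 4.77% between KO and WT stimulated libraries and of 3.57% between KO and WT resting libraries. Its median was 3.57% between libraries of the same group and 11% between stimulated and resting libraries. The pairs within groups pool stimulated with resting libraries, which hold more segment counts. They are thus no matched reference for the stimulated or for the resting distances of either chain.

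For Trav segments that distance was 12.6% between KO and WT stimulated libraries when single segments were used, against 9.29% within groups. With copies summed it was 7.06% between KO and WT stimulated libraries and 5.91% within groups. Between KO and WT resting libraries it was 8.91% for single segments and 5.32% for copy sets. Both are below the medians within groups, which include the stimulated libraries with fewer segment counts and are no matched reference.

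In resting cells, 0 of 122 segments were called between KO and WT cells, as were 0.0361% of all 16637 genes tested. At an unadjusted p under 0.05, 7 were higher and 1 lower in KO cells (edgeR), and DESeq2 also called 0. That count of higher segments was 28 without WT resting replicate 3, 10 without KO resting replicate 1, 4 without WT resting replicate 1, 2 without WT or KO resting replicate 2 and 1 without KO resting replicate 3. Over all genes such a p, in either direction, was reached by 2283 of 16637 with all libraries. Without WT resting replicate 3 it was reached by 3804 of 16975. The fold changes leaned to KO cells: 104 of 122 lay above 0, or 85.2%, against 52.1% of all genes tested. The median log2 fold change was 0.17 over 100 Trav and 0.16 over 22 Trbv segments, against 0.01 over all genes. Over all 122 it was 0.16, and it ran from 0.09 (66.9% above 0) without WT resting replicate 1 to 0.30 (91% above 0) without WT resting replicate 3, with 0.26 without KO resting replicate 1. KO cells lay above all WT libraries for 21 of 122 segments, against 16.8% of all genes, and below all for 1, against 7.38%.

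Summed Trav segments lay at 175, 194 and 197 CPM in KO and 145, 156 and 179 CPM in WT resting cells. Summed Trbv segments lay at 321, 363 and 357 CPM in KO and 272, 302 and 347 CPM in WT resting cells. The groups overlapped in both chains, and the exact permutation test gave p = 0.2 for each (two-sided, n = 3 each). Myeloid marker RNA (Csf1r, Lyz2, Cd14, Itgam, Fcgr3 and Spi1, summed) varied beside it, at 704 to 722 CPM in KO and at 1774, 1026 and 693 CPM in WT resting cells. B cell markers summed to 1619 to 1696 CPM in KO and to 2242, 1740 and 1135 CPM in WT resting cells. Erythroid markers summed to 931, 128 and 84.5 CPM in KO and to 948, 281 and 34.5 CPM in WT resting cells. The CD3 chain genes, beside these, summed to 1198, 1257 and 1264 CPM in KO and to 1148, 1229 and 1309 CPM in WT resting cells. The 6 CD4 T cell markers (Cd4, Cd3d, Cd3e, Cd3g, Cd5 and Cd28) summed to 2575.5, 2632.5 and 2684.2 CPM in KO resting cells. In WT resting cells they summed to 2193.6, 2395.3 and 2529.8 CPM, and the groups did not overlap. Cd4 itself lay at 976, 999 and 1020 CPM in KO and 726, 817 and 893 CPM in WT. Of the 6 markers 0 were called, and their median log2 fold change was 0.05. In WT cells the library highest in the myeloid, B cell and erythroid sums had the lowest segment sum. In KO cells replicate 1 had the lowest segment sum, and it was highest in myeloid and erythroid markers but lowest in B cell markers. The part of these markers in the difference was not tested. None of the 6 myeloid, 7 B cell and 4 erythroid genes was called between KO and WT resting cells. In a bulk sample, fewer T cells and less receptor RNA per cell cannot be told apart.

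Scaling to the summed segment counts instead of to all genes holds the summed segment level equal between libraries. Segment fold changes then centre near 0 by construction, so this scale cannot test the lean to KO cells. On this share scale 49 of 100 Trav and 9 of 22 Trbv segments lay above 0 in KO against WT resting cells, and 0 were called.

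Stimulated cells were compared with resting cells within each genotype. Segment RNA was lower in stimulated cells for most members. In KO cells 109 of 122 segments fell and 0 rose, where 43.3% of all genes were called lower and 39.6% higher. In WT cells 99 of 122 fell and 0 rose, where 44.8% of all genes were called lower and 39.3% higher (edgeR, adjusted p under 0.05). The median log2 fold change was -1.24 for Trav and -1.08 for Trbv segments in KO cells, and -1.08 and -1.07 in WT cells.

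Summed Trav segments averaged 61.4 ± 3.61 CPM in the 6 stimulated libraries and 174 ± 20.5 CPM in the 6 resting libraries. Summed Trbv segments averaged 137 ± 4.4 CPM in stimulated and 327 ± 35.2 CPM in resting libraries (SD, n = 6 each). The groups did not overlap, and the exact permutation test over libraries gave p = 0.0022 for each, the smallest it can give with 6 against 6. Stimulation, table and sex of the cells cannot be told apart here, as stated above.

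Markers of other cell types moved with the condition too. All 6 myeloid genes fell in both genotypes, and their sum was 6.98 to 18.7 CPM in stimulated and 693 to 1774 CPM in resting libraries. Of 7 B cell genes 6 fell in both, with a sum of 307 to 623 CPM in stimulated and 1135 to 2242 CPM in resting libraries. All 4 erythroid genes fell in both, with a sum of 7.79 to 39.4 CPM in stimulated and 34.5 to 948 CPM in resting libraries, which overlapped. Their part in the segment levels was not tested.

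The constant regions of the alpha and beta chains, which are joined to every variable segment of their chain, had smaller log2 fold changes than the medians of the segments. Trac lay at 223, 231 and 231 CPM in KO and 214, 210 and 225 CPM in WT stimulated cells, and at 483, 523 and 525 CPM in KO and 444, 475 and 512 CPM in WT resting cells. Its log2 fold change was -0.83 ± 0.08 in KO and -0.81 ± 0.08 in WT cells (SE). The fit scales libraries otherwise than CPM, so these are not ratios of the CPM given. Trbc1 fell by 0.60 in KO and by 0.51 in WT cells, and Trbc2 by 0.54 in KO and by 0.44 in WT cells, on the log2 scale. Trdc of the delta chain fell by 1.23 in KO and by 2.17 in WT cells, which is more than the segment medians in WT cells. All 4 constant regions that were tested fell in both genotypes. Those of the gamma chain (Trgc1, Trgc2 and Trgc4) were not found under these symbols, so they were not examined.

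The ratio of Trav to Trac counts within a library, computed after these levels had been seen, was 0.275, 0.269 and 0.269 in KO and 0.293, 0.26 and 0.291 in WT stimulated cells. It was 0.363, 0.372 and 0.375 in KO and 0.327, 0.328 and 0.349 in WT resting cells. The ratio of Trbv to the sum of Trbc1 and Trbc2 was 0.273 to 0.277 in KO and 0.269 to 0.288 in WT stimulated cells, and 0.373 to 0.383 in KO and 0.343 to 0.37 in WT resting cells. Stimulated libraries lay below all resting libraries in both ratios (exact permutation p = 0.0022 for each, n = 6 each). In resting cells KO lay above all WT libraries in both, and the exact permutation test gave p = 0.1, the smallest value 3 against 3 can give.

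**Figure D4:**
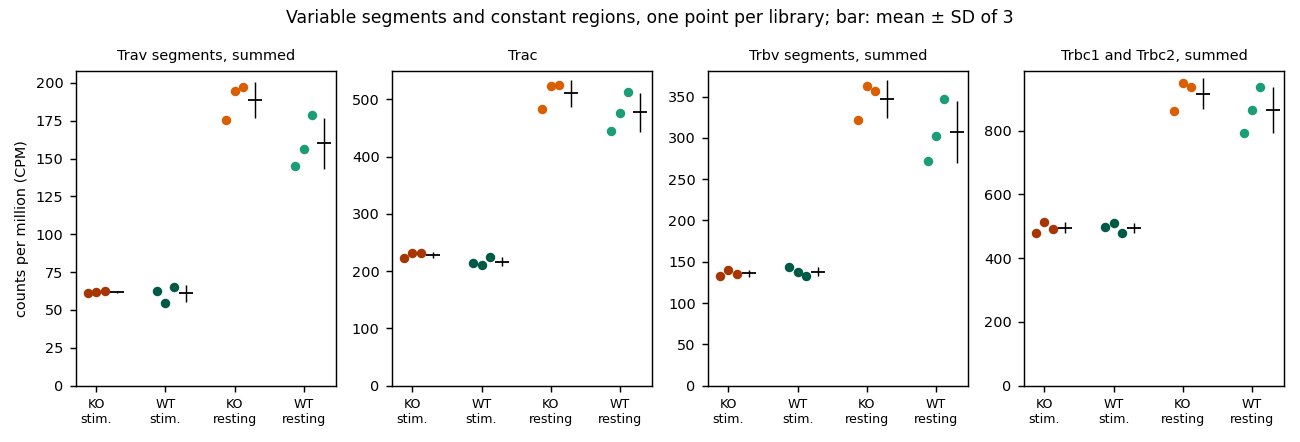
Summed CPM of the Trav segments, Trac, the Trbv segments and Trbc1 with Trbc2 (y axes) in KO stimulated, WT stimulated, KO resting and WT resting cells (x axis), with 1 point per library and the mean ± SD of 3 libraries at the right of each group. All stimulated libraries lie below all resting libraries in every panel, by a wider factor for the segments than for the constant regions.

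The partners of the receptor fell unequally. The CD3 chains carry its signal into the cell, and Cd3g fell by 2.29 in KO and by 2.26 in WT cells on the log2 scale. Cd3d fell by 0.87 in KO and by 0.85 in WT cells, and Cd3e by 0.48 in KO and by 0.39 in WT cells. Cd247, the zeta chain, fell by 0.21 in WT cells (adjusted p = 0.024), and its log2 fold change in KO cells was -0.13 (adjusted p = 0.14, edgeR). Of 10 genes tested from the list for V(D)J recombination, 4 rose and 4 fell in each genotype. That list also held the receptor chain gene Ptcra, which was among the 4 that rose. Ptcra had 0 to 7 counts in resting and 9 to 24 in stimulated libraries. Dntt, which adds bases at the joints, fell by 5.50 in KO and by 5.17 in WT cells. The recombinase gene Rag1 fell by 3.21 ± 0.74 in KO and by 2.90 ± 0.71 in WT cells (SE), from counts near the floor. It had 31, 21 and 20 counts in KO and 33, 32 and 7 in WT resting cells, and 0 to 4 in stimulated libraries. The genes for the end-binding Ku proteins, Xrcc5 and Xrcc6, rose by 1.64 and 1.72 in KO and by 1.95 and 1.93 in WT cells.

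Between KO and WT cells, 0 of 4 constant regions, 4 CD3 chains and 9 recombination genes were called in resting cells. In stimulated cells Trdc, which encodes the constant part of delta chains, was higher in KO cells, at 3.55, 4.58 and 4.89 CPM in KO and 1.94, 2.26 and 2.21 CPM in WT cells. Its log2 fold change was 1.00 ± 0.14 (SE, adjusted p = 0.00611, edgeR). It marks gamma-delta T cells. The summed gamma-delta markers, at 4.19 to 5.68 CPM in KO and 3.03 to 3.29 CPM in WT stimulated cells, consist mostly of Trdc. They hold no gamma chain gene, since the listed symbols of the gamma constant regions were not found. The other gamma-delta marker that could be tested, the transcription factor gene Sox13, averaged 0.721 CPM in KO and 0.911 CPM in WT stimulated cells and was not called (log2 fold change -0.35 ± 0.23, SE, adjusted p = 0.42, edgeR). The CD8 markers Cd8a and Cd8b1 summed to 28.5 to 32.7 CPM in KO and 15.4 to 21 CPM in WT stimulated cells. The 7 B cell markers summed to 598 to 623 CPM in KO and 307 to 460 CPM in WT stimulated cells. Of the 2 CD8 markers Cd8b1 was called higher in KO cells (log2 fold change 0.67, adjusted p = 0.00289, edgeR). Of the 7 B cell markers 1, Ighd, was called higher (0.94, adjusted p = 0.0244, edgeR). The 6 myeloid markers summed to 16.4 to 18.7 CPM in KO and 6.98 to 12.7 CPM in WT stimulated cells, and 3 of them were called higher in KO cells. Their part in the segment counts was not tested.

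Usage within the segment pool was read on the share scale, on which each library was scaled to its summed segment counts. This moved the median log2 fold change of all genes to 0.99 in KO and 0.74 in WT cells, so the values below are relative to the segment pool. In KO cells 7 segments took a higher and 22 a lower share after stimulation, and in WT cells 8 a higher and 23 a lower share. On that scale 61.9% of all genes were called higher and 18.4% lower in KO cells, and 56.6% and 24.4% in WT cells.

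In each genotype 4 Trbv segments took a higher share, and 2 of them, Trbv2 and Trbv31, did so in both. Trbv2 held 6.19%, 6.35% and 5.95% of the segment counts in KO and 6.32%, 5.9% and 6.52% in WT stimulated cells. In resting cells it held 3.83%, 3.83% and 4.06% in KO and 3.54%, 3.67% and 3.74% in WT. The 6 stimulated libraries lay above all resting ones, with a log2 fold change of share of 0.66 ± 0.10 in KO (adjusted p = 1.45e-05) and 0.78 ± 0.10 in WT cells (SE, adjusted p = 2.65e-06, edgeR). Trbv31, the only Trbv segment that lies beyond the constant regions in the opposite orientation, held 7.02% ± 0.669 in KO and 6.76% ± 0.344 in WT stimulated cells, and 4.58% ± 0.0928 in KO and 4.38% ± 0.215 in WT resting cells (SD, n = 3 each). Its share rose by a log2 value of 0.62 ± 0.10 in KO and 0.63 ± 0.10 in WT cells (SE). Scaled to all genes, neither of them rose: Trbv2 fell by 0.45 in KO cells and Trbv31 by 0.50 on the log2 scale. Their log2 fold changes in WT cells were -0.13 and -0.28 (adjusted p = 0.34 and 0.075, edgeR).

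Lower shares were found for 5 Trbv segments in both genotypes, Trbv13-3, Trbv14, Trbv15, Trbv16 and Trbv17, which are all 5 called lower in KO cells and 71.4% of those in WT cells. Trbv16 held 1.75%, 1.98% and 2% in KO and 1.97%, 1.8% and 1.66% in WT stimulated cells, and 2.86%, 2.81% and 2.8% in KO and 3.23%, 3.21% and 3.3% in WT resting cells. On the log2 scale its share fell by 0.56 in KO cells (adjusted p = 0.000778) and by 0.84 in WT cells (adjusted p = 1.96e-05, edgeR). Trbv17 held 0.591% ± 0.0954 in KO and 0.609% ± 0.0799 in WT stimulated cells, against 1.02% ± 0.0418 in KO and 0.945% ± 0.044 in WT resting cells (SD, n = 3 each). Trbv13-3, a relative of the leading Trbv13-2, held 2.52% ± 0.116 in KO and 2.64% ± 0.213 in WT stimulated cells, against 3.82% ± 0.117 in KO and 3.83% ± 0.109 in WT resting cells. Trbv13-2 itself was not called on the share scale in either genotype, with log2 fold changes of share of 0.10 ± 0.09 in KO and -0.03 ± 0.09 in WT cells (SE).

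With scaling to all genes, these segments were among those that fell most. On the log2 scale Trbv17 and Trbv15 fell by 1.90 and 1.75 in KO cells, and Trbv16 and Trbv14 by 1.74 and 1.66 in WT cells (edgeR, adjusted p = 3.25e-07, 3.61e-08, 4.99e-08 and 4.77e-07). Trav14d-1 and its identical copy Trav14n-1 fell by 2.22 in KO cells, each at 73, 79 and 71 counts in KO stimulated and 379, 439 and 457 counts in KO resting cells.

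In the alpha chain, 11 segments took a lower share after stimulation in both genotypes, which is 64.7% of the 17 called lower in KO cells and 68.8% of the 16 in WT cells. Several of them are copies of one another, so they are not 11 independent measurements: Trav14d-1 with Trav14n-1, Trav9d-3 with Trav9n-3 and Trav15d-2-dv6d-2 with Trav15n-2 have the same transcript. Of 3 segments called higher in KO and 4 in WT cells, Trav14-3 was the 1 that took a higher share in both (33.3% and 25.0% of them), by 0.49 ± 0.21 in KO and 0.58 ± 0.21 in WT cells on the log2 scale (SE, adjusted p = 0.039 and 0.019, edgeR). 0 segments were called in opposite directions in the 2 genotypes. Trav7-2 was called lower in KO cells, but this rests on the division of counts between copies described above.

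**Figure D5:**
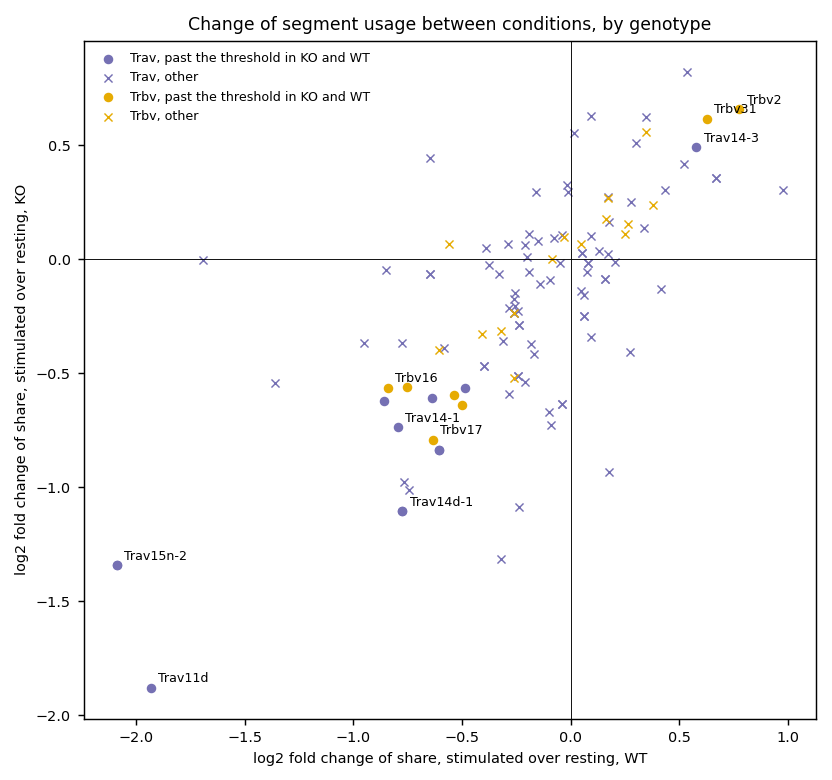
Log2 fold change of segment share, stimulated over resting, in KO cells (y axis) and in WT cells (x axis), for the 119 of 122 tested segments within the axes; 3 others, whose fitted values rest on libraries with 0 counts, lie outside. Filled points were past the threshold in both genotypes: Trbv2, Trbv31 and Trav14-3 lie at the upper right and the others at the lower left.

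Segments with a known link to innate-like T cells were read separately. Trav11 and Trav11d, which encode the variable part of the invariant natural killer T cell receptor, form a contained pair, and their sum was used. It was 19, 26 and 24 counts in KO and 53, 15 and 19 counts in WT stimulated cells, and 294, 216 and 148 counts in KO and 348, 219 and 285 counts in WT resting cells. Stimulated libraries lay below all resting ones, and on the log2 scale the sum fell by 2.96 ± 0.41 in KO and by 3.07 ± 0.40 in WT cells (SE, adjusted p = 2.35e-05 and 1.39e-05, edgeR). Trav11 itself had counts only in replicate 2 of the WT resting cells, 142 beside 77 of Trav11d. Between KO and WT the sum was not called, with log2 fold changes of -0.33 ± 0.44 in stimulated and -0.46 ± 0.27 in resting cells (SE, adjusted p = 0.73 and 0.49, edgeR).

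Genes that mark natural killer T and mucosal-associated invariant T (MAIT) cells moved in the same direction between conditions. Zbtb16, Klrb1c, Il18r1 and Cxcr6 fell in both genotypes, all 4 of 4, and summed to 14.2 to 17.1 CPM in KO and 9.09 to 12.9 CPM in WT stimulated cells and to 165 to 214 CPM in KO and 189 to 229 CPM in WT resting cells. Their part in the level of Trav11d was not tested. Trav1, the segment of MAIT cells, had 22, 27 and 27 counts in KO and 26, 12 and 23 counts in WT stimulated cells, and 53, 70 and 72 counts in KO and 54, 63 and 52 counts in WT resting cells. It fell by 1.06 ± 0.27 in KO and by 1.26 ± 0.28 in WT cells (SE, adjusted p = 0.00296 and 0.00101, edgeR). Its share of the segment counts was not called, with log2 fold changes of share of 0.05 ± 0.30 in KO and -0.39 ± 0.31 in WT cells.

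Whether the response to stimulation differed between the genotypes was tested as the difference of the 2 log2 fold changes, KO minus WT. 0 of 122 segments were called, as were 0.693% of all 17460 genes tested. At an unadjusted p under 0.05, 0 were higher and 4 lower (edgeR), and DESeq2 called 1, Trav7-2, lower. The 4 became 24 without WT resting replicate 3, 10 without KO resting replicate 1 and 8 without KO stimulated replicate 2. Over all genes such a p, in either direction, was reached by 2777 of 17460 with all libraries. Without WT resting replicate 3 it was reached by 4650 of 17900. The median difference was -0.23 for Trav and -0.20 for Trbv segments, against -0.01 over all genes. Over all members tested it was -0.22, and it ran from -0.12 without WT resting replicate 1 to -0.36 without WT resting replicate 3. On the share scale the median was -0.02 for Trav and 0.02 for Trbv, which that scale places near 0 by construction.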

How the data were processed

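PolyA RNA of 12 libraries, 3 per group, was sequenced from stranded libraries, per the labels' protocols. The authors deposited expected counts per gene, estimated read numbers that need not be whole, in a resting and a stimulated table. Per the submitters' processing notes, reads were handled with bcl2fastq 2.20, cutadapt 1.18, STAR 2.7.0f and RSEM 1.3.1 on the mm10 build; the roles, the annotation and the strand setting are not given in the sources used here. All 55450 gene IDs matched GENCODE M21 (GRCm38), which gave positions and transcripts.

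The expected counts were rounded to whole numbers. Before rounding, 33.7% to 52.8% of a library's segments had values that were not whole. CPM are counts over the library total. The fitted log2 fold changes use TMM scaling instead, so they can differ from ratios of CPM. Each comparison was fitted over all genes with edgeR 4.0.16 (R 4.3.3): filterByExpr with a minimum count of 10, TMM scaling, the quasi-likelihood test and Benjamini-Hochberg adjustment, calling adjusted p under 0.05. KO and WT were compared within each table, and stimulated with resting cells, and the difference of responses, in 1 fit of 12 libraries. The fits were tested on simulated data. Single values were compared by exact permutation over libraries. DESeq2 1.42.0, no filter, scaling to summed segment counts, summed copies, the replicate number as a block and leaving out each library were tried.

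A copy set held symbols that are equal once a d or n after the family number and a dv suffix are removed. Named segments were the 5 Trav and 5 Trbv with the largest mean share, those called (up to 4 per direction with at least 3 CPM between conditions), those in 1 genotype only, copy sets apart in the same direction in both conditions, Trav7-2, Trav11, Trav1 and their copies, and receptor pathway genes; Trbv2 and other segments named for their share, the Trav7n-6 and other contained pairs, and C920008G01Rik, were picked with their values in view. The members and lists were chosen with earlier results of these data known. Libraries of a group differed by more than counting noise, so all 12 were counted separately. Replicate numbers were not treated as pairs, and deviations of same-numbered libraries correlated at -0.126 to 0.328. Between WT and KO resting libraries the values were 0.328, -0.111 and 0.274 for replicates 1, 2 and 3, so pairing there is not excluded.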

Additional observations from a re-analysis of the deposited data

How the results depend on the processing

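Trav7d-2 and Trav7-2 were called between KO and WT stimulated cells in every refit on single segments (1 higher and 1 lower each time). The refits were DESeq2 size factors, DESeq2's own test, no filter, the share scale, the replicate block and each library left out. They reuse the same counts of a pair named beforehand, so they only describe it. With copy sets summed, 0 were higher and 0 lower, and the same was found when only indistinguishable transcripts were summed, an alternative chosen after seeing the data. Between stimulated and resting cells, the share scale gave 7 higher and 22 lower segments in KO and 8 higher and 23 lower in WT cells, since it measures each segment against the pool. Summing copy sets left fewer features to test, with 65 lower in KO and 61 lower in WT cells of 69 tested. Leaving out 1 library gave 104 to 111 lower and 0 to 1 higher in KO cells; the 1 was Trav7d-2, without KO resting replicate 3. It gave 83 to 101 lower in WT cells. For the difference of responses, DESeq2's test called 1 lower, Trav7-2. Leaving out 1 library gave 0 to 4 lower: 4 without WT resting replicate 3 (Trbv2, Trbv19, Trav12n-3 and Trav14d-3-dv8) and 1, Trav7-2, without KO resting replicate 3. The cause was not tested.

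Small differences of KO minus WT in stimulated cells changed sign with the libraries left out: summed Trav from -2.19 to 3.21 CPM (0.955 with all), summed Trbv from -4.32 to 1.03 CPM (-1.86 with all) and entropy from -0.015 to 0.0623 bits (0.0171 with all). In resting cells the Trav7d-2 share of its set ran from -32.9 to 17.1 percentage points (0.44 with all). The fit with the replicate number as a block called 0 segments between KO and WT resting cells, and 1 higher and 1 lower in stimulated cells. Between conditions it called 110 lower in KO and 97 lower in WT cells, and it called 0 for the difference of responses. Whether the numbers pair the libraries was not settled. The other values of the named segments and counts kept their direction and side of the threshold. Precision is limited by 3 libraries per group and by the 13039 to 15579 segment counts of the stimulated libraries; most Trav segments had under 1% of them.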
